A study of Homo sapiens with 6 samples.

Results

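The genes described here encode the collagen chains and the enzymes that finish them. They were 57 of the 58735 genes in the count table, of which 44 were protein-coding genes with a collagen chain symbol (COL, a number, A and a number) and 13 were processing enzymes and chaperones picked by name (P4HA1, P4HA2, P4HA3, PLOD1, PLOD2, PLOD3, LOX, LOXL1, LOXL2, LOXL3, LOXL4, SERPINH1 and PCOLCE). Their RNA was sequenced in MDA-MB-231 cells, a human triple-negative breast cancer line of mesenchymal character labelled wild type (3 parent libraries), and in cells derived from that line that resist Adriamycin (3 ADRr libraries). Adriamycin (ADR, doxorubicin) is an anthracycline that traps topoisomerase II on DNA. ADRr cells had been taken through rising ADR concentrations and then grown from single cells by limiting dilution, so that resistance and clonal origin cannot be told apart. Both lines grew in DMEM with fetal bovine serum, and the ADR dose at harvest is not given in the sources used here. The series text speaks of time points that no label names, so the 3 libraries of a line were treated as replicates. Nothing says that they came from separate cultures, and the p-values measure only the spread between these libraries, which may be technical.

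Collagens are proteins of the extracellular matrix in which chains wind around each other as a triple helix, as copies of 1 chain or as a mix of chains from different genes. In the endoplasmic reticulum, prolyl 4-hydroxylases and lysyl hydroxylases modify the chains and SERPINH1 holds the folded helix. After secretion, end pieces are cut off and lysyl oxidases cross-link the fibres. Fibrillar collagens form the banded fibres of stroma, FACIT collagens sit on those fibres, network collagens build basement membranes, and type VI collagen makes beaded filaments at the cell surface. In breast tumours most fibrillar collagen comes from fibroblasts, while carcinoma cells carry basement membrane and pericellular collagens of their own.

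Total counts ranged from 15983985 to 18272314 per library, and a count of 0 there allows up to 3 counts. edgeR tested 15242 genes, and a called gene is one whose adjusted p was 0.05 or less and whose level changed 1.2-fold or more. Normalized counts below are TMM-scaled counts, which compare 1 gene between libraries. FPKM divides by gene length and was used to set genes beside each other. That length takes in every annotated exon of a gene and may exceed that of the transcript made. Rankings, shares and ratios of FPKM across genes depend on it. Of the markers of MDA-MB-231 cells, VIM, a mesenchymal filament protein, was called lower in ADRr cells (-0.56, 8799.6 ± 251 to 5972 ± 106 normalized counts) and CD44, a hyaluronan receptor, higher (0.80, 14623 ± 440.0 to 25393 ± 154). ESR1 had no more than 1 count and PGR was at 0. ERBB2 and CDH1, which were listed as low in this line, had 2056 ± 163 and 252 ± 26.7 normalized counts in parent cells and 868 ± 46.4 and 121 ± 19.2 in ADRr cells. Of 8 fibroblast markers, 6 had at most 10 counts in any library and DCN, MFAP5 and DPT were at 0 throughout. The summed FPKM of that list was 10.0 to 10.4 in parent and 1.97 to 2.32 in ADRr libraries. The remaining markers of that list were PDGFRB, which fell by 2.90 on the log2 scale, and LUM, which fell by 0.67. The part of any of these markers in the collagen results was not tested. Taken as separate lists, endothelial markers summed to at most 0.128 FPKM and leukocyte markers to at most 0.111 FPKM in any library. In bulk RNA, fewer cells that make a transcript and less of it per cell cannot be told apart.

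Collagen genes were more often lower than higher in ADRr cells. The genes called higher were COL6A1, COL6A2, COL4A5, COL4A6, COL17A1, COL27A1 and the enzyme PLOD3. Of the 57 genes, 39 passed the filter on low counts and 18, all of them chains, did not. Among those 39, edgeR called 7 higher and 22 lower in ADRr cells and did not call 10. The same calls were made for 58.8% of all tested genes, with 29.2% higher and 29.6% lower, so that the members' share of genes called, 74.4%, stood above a background in which most genes had changed. The ADRr libraries lay wholly above the parent libraries for 11 of the 39 and wholly below them for 23, and the groups overlapped for 5, where 69.2% of all tested genes had no overlap. The median log2 fold change was -0.51 over the 39 genes and -0.0061 over all tested genes. For chains alone the median was -0.44 (6 higher and 14 lower of 26 tested), and for the 13 enzymes it was -0.67 (1 higher and 8 lower). Of these genes 11 chains and 3 enzymes moved by 1 or more on the log2 scale, in either direction.

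**Figure D1:**
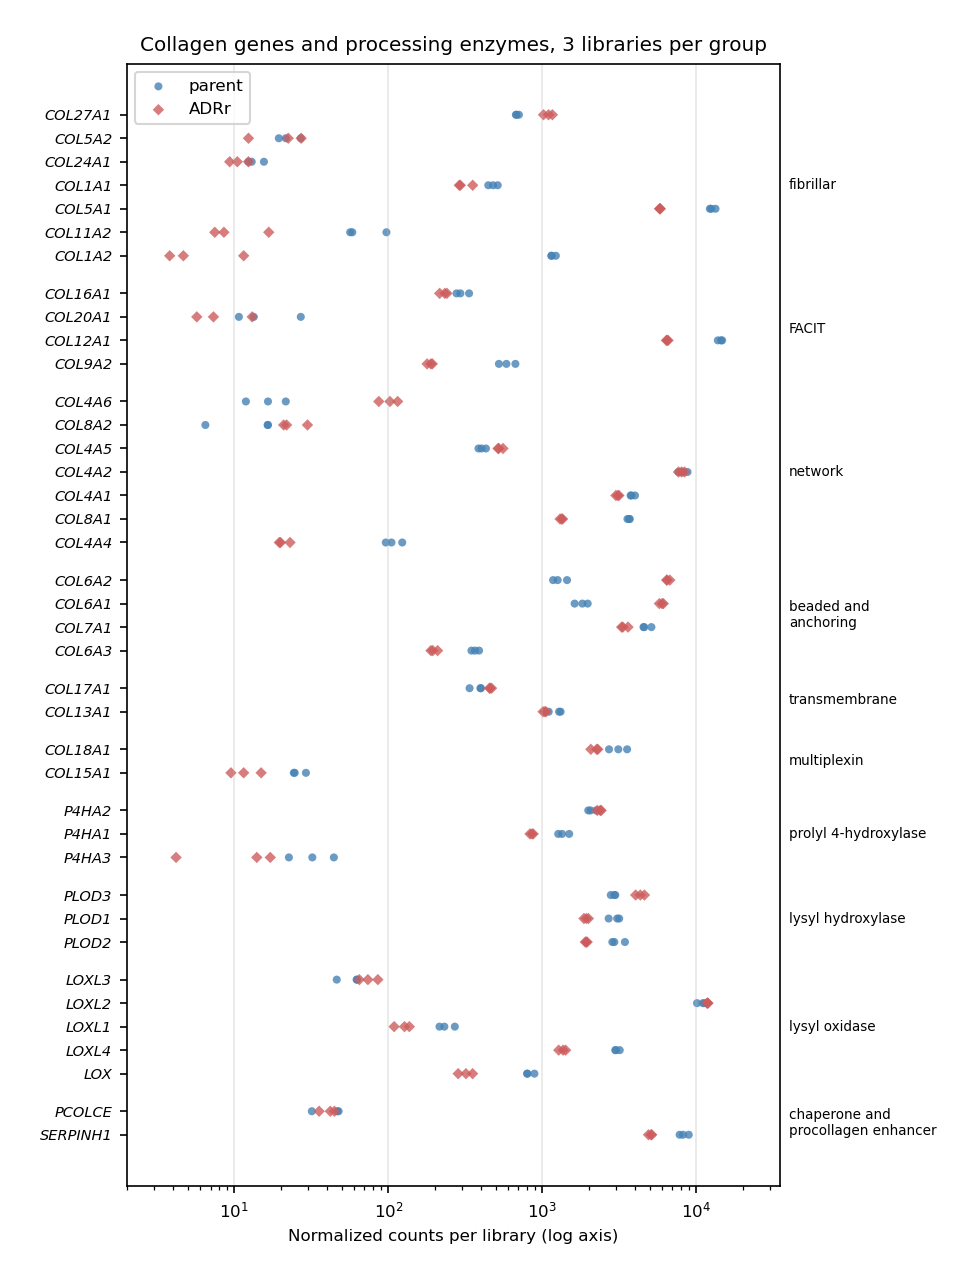
Normalized counts of the 39 tested collagen genes and enzymes in each of the 6 libraries (log axis), grouped by structural class, with parent libraries as circles and ADRr libraries as diamonds. COL6A1 and COL6A2 lie to the right in ADRr cells, while COL1A2 drops from 1145 or more normalized counts to 11.5 or fewer.

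**Figure D2:**
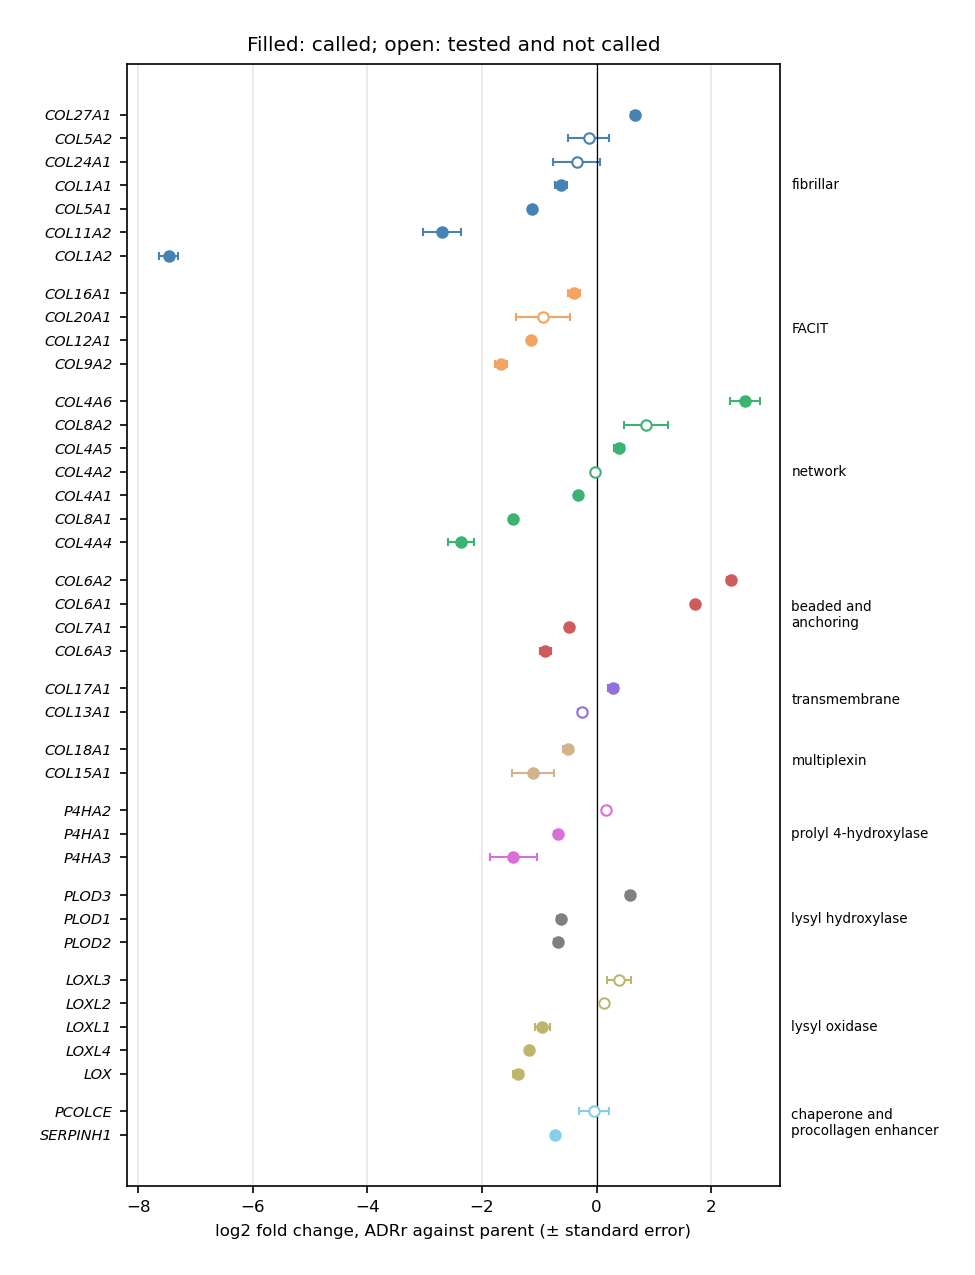
The log2 fold change of each tested gene, ADRr against parent, with a standard error derived from the F statistic of edgeR's test. Filled points were called and open points were tested and not called. At few reads, as for COL1A2, the bar is too short. Of the 39 points 22 are filled left of 0 and 7 right of it, from -7.47 for COL1A2 to 2.59 for COL4A6.

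The chains of type VI collagen moved in opposite directions. Type VI collagen is assembled from COL6A1, COL6A2 and a larger partner, for which COL6A3 is the usual chain. COL6A2 (ENSG00000142173, GRCh38 chromosome 21, 46098097 to 46132849) had 1259, 1175 and 1448 normalized counts in parent replicates 1, 2 and 3 and 6445, 6738 and 6448 in ADRr replicates 1, 2 and 3. Every ADRr library lay far above every parent library, and COL6A2 rose 5.06-fold (log2 fold change 2.34, SE 0.064, adjusted p = 1.3e-18 in edgeR). COL6A1 (ENSG00000142156, GRCh38 chromosome 21, 45981737 to 46005050), whose gene ends 93046 bases before COL6A2 on the same strand, had 1821, 1623 and 1972 normalized counts in parent replicates 1, 2 and 3 and 5759, 6001 and 6112 in ADRr replicates 1, 2 and 3. It rose 3.30-fold, log2 fold change 1.72, SE 0.062, adjusted p = 1.4e-16. COL6A3 (ENSG00000163359, GRCh38 chromosome 2, 237324003 to 237414375) went the other way, with 388, 347 and 366 normalized counts in parent replicates 1, 2 and 3 and 189, 194 and 209 in ADRr replicates 1, 2 and 3. Its groups did not overlap, and it fell by 0.89 on the log2 scale (SE 0.10, edgeR adjusted p = 7.2e-08). COL6A5 and COL6A6, which encode chains that can take the place of COL6A3, were at 0 in all 6 libraries. In FPKM, COL6A1 stood at 19.3 ± 1.86 in parent and 64.0 ± 1.99 in ADRr cells, COL6A2 at 13.8 ± 1.46 in parent and 69.8 ± 1.61 in ADRr cells and COL6A3 at 1.07 ± 0.0632 in parent and 0.578 ± 0.0311 in ADRr cells, so that COL6A2 and COL6A1 became the chain transcripts with the highest FPKM in ADRr cells.

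The stretch before the start of COL6A2 is shown because this was the largest rise among the abundant chains. It lies at chr21:46097862-46098096 of GRCh38.p14, plus strand, and comes from RefSeq. It ends where the GENCODE 29 gene begins, 15 bases short of the RefSeq start at 46098112. Of its bases 79.6% were G or C. Capitals mark the motifs that were searched on both strands. They were the core of the promoter element near the start written TATAAA, the upstream element written CCAAT, and the GC box that Sp proteins bind, written GGGCGG.
COL6A2: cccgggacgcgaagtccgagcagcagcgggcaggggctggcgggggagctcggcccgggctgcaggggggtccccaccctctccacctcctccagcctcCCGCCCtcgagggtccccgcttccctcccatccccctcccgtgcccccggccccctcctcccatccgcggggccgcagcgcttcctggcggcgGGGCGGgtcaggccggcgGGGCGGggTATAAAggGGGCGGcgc
The letters TATAAA begin at -32 and GC boxes at -151, -58, -40 and -24, counted from the first transcribed base of RefSeq as 0. A window from 250 bases before the start to 50 bases after it was on hand for 43 of the 57 genes. TATAAA was in 6 of the 43 windows, CCAAT in 13 and GGGCGG in 24. Over all 27305 promoter windows on hand, 12.0% held TATAAA, 35.7% CCAAT and 44.6% GGGCGG. These are matches of letters and were not tested as sites. COL1A2, COL1A1, COL6A1 and COL8A1 were not among the 43.

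COL7A1, which encodes the anchoring fibril collagen of epithelial basement membranes and was grouped with type VI here, went from 4750.3 ± 317 to 3406 ± 176 normalized counts (mean ± SD, n = 3 libraries each) and was called lower (log2 fold change -0.48).

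COL1A2 nearly disappeared from ADRr cells while its partner COL1A1 did not. Type I collagen, the main fibre protein of bone, skin and stroma, usually holds a pair of COL1A1 chains and a COL1A2 chain. COL1A2 (ENSG00000164692, GRCh38 chromosome 7, 94394561 to 94431232) had 1225, 1145 and 1149.6 normalized counts in parent replicates 1, 2 and 3 and 3.80, 11.5 and 4.66 in ADRr replicates 1, 2 and 3. As raw counts the ADRr libraries held 4, 11 and 5 reads. The mean was 176-fold lower in ADRr cells (log2 fold change -7.47, SE 0.16, adjusted p = 3.0e-20 in edgeR). This SE was derived from the F statistic and understates the uncertainty at so few reads. The size of this fold rests on those few reads, and the log2 fold change was -8.07 without ADRr replicate 2, which held the 11 reads, and -7.18 without ADRr replicate 1. This was the largest change of any collagen gene, and the fit on log2(FPKM + 1), which understates low genes, gave -2.76. COL1A1 (ENSG00000108821, GRCh38 chromosome 17, 50183289 to 50201632) had 479, 446 and 514 normalized counts in parent replicates 1, 2 and 3 and 294, 353 and 289 in ADRr replicates 1, 2 and 3. The groups did not overlap, yet the change was small beside that of COL1A2 (log2 fold change -0.62, SE 0.10, adjusted p = 7.5e-06).

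Type V collagen, which seeds and limits the width of type I fibres, was carried by COL5A1. COL5A1 (ENSG00000130635, GRCh38 chromosome 9, 134641774 to 134844843) had 12513, 12259.6 and 13338 normalized counts in parent replicates 1, 2 and 3 and 5781, 5843 and 5807 in ADRr replicates 1, 2 and 3. The ADRr libraries lay close together, at less than the parent level, and COL5A1 fell 2.19-fold (log2 fold change -1.13, SE 0.048, adjusted p = 2.5e-15 in edgeR). Its partner COL5A2 had 21.6, 27.0 and 19.5 normalized counts in parent replicates 1, 2 and 3 and 12.4, 27.2 and 22.4 in ADRr replicates 1, 2 and 3. The COL5A2 groups overlapped and it was not called (log2 fold change -0.14, edgeR adjusted p = 0.75), with estimates from -0.37 to 0.14 when single libraries were left out. COL5A3 was at 0 in every library. Of the other fibrillar chains, COL27A1, a chain of growing cartilage, was called higher (log2 fold change 0.67, 687 ± 16.4 to 1093 ± 72.3 normalized counts). COL11A2, a cartilage chain at a low level here, was called lower (-2.70, 70.7 ± 23.0 to 10.9 ± 5.06). COL24A1 was not called (-0.35, 13.6 ± 1.71 to 10.7 ± 1.53). In all, 1 of the 7 tested fibrillar chains was higher, 4 were lower and 2 were not called.

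The FACIT collagens held no gene that was called higher. Of their 10 chains 4 were tested and 3 of those were called lower. COL12A1 (ENSG00000111799, GRCh38 chromosome 6, 75084326 to 75206051) encodes the homotrimeric type XII chain that coats type I fibres. It had 14727, 14503 and 13818 normalized counts in parent replicates 1, 2 and 3 and 6460.0, 6403 and 6563 in ADRr replicates 1, 2 and 3. This was the chain with the highest FPKM in parent cells (65.8 ± 2.35 in parent and 29.8 ± 0.455 in ADRr cells), and it fell 2.22-fold (log2 fold change -1.15, SE 0.046, adjusted p = 1.0e-15 in edgeR). COL9A2 (ENSG00000049089, GRCh38 chromosome 1, 40300487 to 40317813), a chain of the cartilage type IX collagen, had 585, 523 and 669 normalized counts in parent replicates 1, 2 and 3 and 179, 189 and 193 in ADRr replicates 1, 2 and 3. It fell 3.17-fold (log2 fold change -1.66, SE 0.10, adjusted p = 2.8e-12), while its partners COL9A3 and COL9A1 were not tested. COL9A3 lay between 3.89 and 10.3 normalized counts in parent and between 1.90 and 7.46 in ADRr libraries, and COL9A1 was at 0. COL16A1 was called lower (-0.40, 302 ± 29.4 to 229.5 ± 12.8), a call that was lost in the fit on log2(FPKM + 1), at -0.24. COL20A1 was not called (-0.94, edgeR adjusted p = 0.086, 17.0 ± 8.75 to 8.69 ± 3.87), but was called lower without parent replicate 3 (-1.19).

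COL5A1 and COL12A1 had the highest FPKM of all chains in parent cells and fell by nearly the same factor, and the bases before their RefSeq starts are given here for that reason, as lower-case letters with the same motifs in capitals. The COL5A1 stretch is chr9:134641553-134641773, plus strand, and the COL12A1 stretch is chr6:75206054-75206303, minus strand, both of GRCh38.p14. The COL5A1 stretch stops at the GENCODE 29 gene, 29 bases short of its RefSeq start at 134641803. The COL12A1 stretch runs up to its RefSeq start at 75206053. Motif positions are again counted from the RefSeq starts.
COL5A1: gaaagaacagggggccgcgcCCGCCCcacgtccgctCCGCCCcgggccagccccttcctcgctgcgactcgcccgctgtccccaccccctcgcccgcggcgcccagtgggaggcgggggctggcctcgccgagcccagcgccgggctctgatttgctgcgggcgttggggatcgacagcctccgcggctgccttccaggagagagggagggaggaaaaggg
COL12A1: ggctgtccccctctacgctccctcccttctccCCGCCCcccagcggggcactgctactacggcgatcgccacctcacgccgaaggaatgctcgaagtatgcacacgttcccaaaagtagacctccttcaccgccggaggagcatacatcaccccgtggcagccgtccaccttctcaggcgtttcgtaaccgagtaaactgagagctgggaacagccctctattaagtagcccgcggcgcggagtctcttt
GC boxes on the minus strand begin at -230 and -214 of COL5A1 and at -218 of COL12A1. Neither stretch holds TATAAA or CCAAT. G and C make up 75.6% of the COL5A1 stretch and 61.2% of the COL12A1 stretch. In the full windows, which take in 50 bases after the start, they made up 74.0% and 63.3%. The median was 58.3% over all promoter windows and 66.7% over the 43 windows of collagen genes and enzymes.

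Basement membrane and short-chain network collagens were split. Type IV collagen exists as nets of COL4A1 and COL4A2, of COL4A3, COL4A4 and COL4A5, or of COL4A5 and COL4A6. The common pair moved little. COL4A2 had 8190.1 ± 564 normalized counts in parent and 8032 ± 359 in ADRr cells and was not called (-0.03, edgeR adjusted p = 0.66), and COL4A1 went from 3848 ± 135 to 3084 ± 71.4 and was called lower (-0.32). The gene bodies of COL4A1 and COL4A2 overlap at their starts on opposite strands but share no exonic base. COL4A6 (ENSG00000197565, GRCh38 chromosome X, 108155607 to 108439497) had 21.6, 11.9 and 16.5 normalized counts in parent replicates 1, 2 and 3 and 115, 102 and 86.7 in ADRr replicates 1, 2 and 3. It rose 6.08-fold (log2 fold change 2.59, SE 0.25, adjusted p = 6.4e-09), the highest fold change of any collagen gene, from a low level. Its partner COL4A5 (ENSG00000188153, GRCh38 chromosome X, 108439844 to 108697545) had 431, 403 and 385 normalized counts in parent replicates 1, 2 and 3 and 556, 516 and 521 in ADRr replicates 1, 2 and 3. COL4A5 was also called higher, but by far less (log2 fold change 0.39, SE 0.085, adjusted p = 3.6e-04). COL4A4 (ENSG00000081052, GRCh38 chromosome 2, 227002711 to 227164453) had 105, 123 and 96.3 normalized counts in parent replicates 1, 2 and 3 and 20.0, 23.0 and 19.6 in ADRr replicates 1, 2 and 3. It fell 5.19-fold (log2 fold change -2.37, SE 0.23, adjusted p = 4.1e-09 in edgeR). COL4A3, which lies 111 bases from COL4A4 on the other strand, had 14.4, 7.56 and 11.7 normalized counts in parent replicates 1, 2 and 3 and 4.75, 1.05 and 6.53 in ADRr replicates 1, 2 and 3 and was not tested. Its ADRr libraries also lay below its parent libraries.

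COL4A5 and COL4A6 lie head to head on chromosome X, with 379 bases between their RefSeq starts. That region is shown because both genes were called higher, by very different amounts. The COL4A6 stretch is chrX:108439498-108439708, minus strand, and the COL4A5 stretch chrX:108439588-108439837, plus strand, both of GRCh38.p14 and marked with the same capitals.
COL4A6: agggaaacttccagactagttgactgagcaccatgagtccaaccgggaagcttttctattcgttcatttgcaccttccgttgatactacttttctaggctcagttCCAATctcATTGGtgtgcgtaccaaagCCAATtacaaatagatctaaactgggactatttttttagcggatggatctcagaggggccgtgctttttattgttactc
COL4A5: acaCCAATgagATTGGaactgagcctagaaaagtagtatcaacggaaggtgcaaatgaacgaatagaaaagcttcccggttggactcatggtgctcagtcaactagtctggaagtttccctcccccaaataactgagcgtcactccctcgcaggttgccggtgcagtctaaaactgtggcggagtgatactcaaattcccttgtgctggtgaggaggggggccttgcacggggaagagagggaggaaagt
The stretches share 121 bases, read from opposite strands. Within them lies a pair of CCAAT boxes that face each other, at -145 and -137 of COL4A6 and at -247 and -239 of COL4A5. A further CCAAT box begins at -118 of COL4A6. Neither stretch holds TATAAA or GGGCGG. G and C make up 43.1% of the COL4A6 stretch and 51.2% of the COL4A5 stretch, less than in the other stretches given here.

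Type VIII collagen, a short-chain network collagen of vessel walls and the cornea, was carried by COL8A1. COL8A1 (ENSG00000144810, GRCh38 chromosome 3, 99638475 to 99799226) had 3702, 3667 and 3574 normalized counts in parent replicates 1, 2 and 3 and 1354, 1339 and 1305 in ADRr replicates 1, 2 and 3. It fell 2.74-fold with no overlap (log2 fold change -1.45, SE 0.054, adjusted p = 2.3e-16 in edgeR). COL8A2, its partner, had 16.4, 6.48 and 16.5 normalized counts in parent replicates 1, 2 and 3 and 21.9, 20.9 and 29.8 in ADRr replicates 1, 2 and 3. The COL8A2 groups did not overlap either, in the other direction, but it was not called (log2 fold change 0.87, edgeR adjusted p = 0.055). It was called higher with library size alone (0.89) and without parent replicate 3 (1.06). In all, 2 of 7 tested network chains were called higher and 3 lower.

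Of the transmembrane and multiplexin collagens 4 were tested, 1 was called higher and 2 were called lower. COL17A1, the hemidesmosomal collagen of epithelia, was called higher (378 ± 35.3 to 460.1 ± 7.31 normalized counts, log2 fold change 0.28), a call that was lost without parent replicate 1 (0.20). COL13A1, which sits at focal adhesions, had 1234 ± 117 and 1036 ± 22.4 (-0.25) and stayed short of the fold threshold, but passed it without parent replicate 1 (-0.33). COL18A1, whose end piece is released as endostatin, was called lower (-0.51, 3129 ± 422 to 2207 ± 122). Of its exonic bases 16.4% overlap SLC19A1 on the other strand, which had at most 36 counts. The related COL15A1 was also called lower, at a low level (-1.11, 26.0 ± 2.71 to 12.0 ± 2.74), and lost the call without ADRr replicate 1 (-0.95, edgeR adjusted p = 0.058).

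The 18 chains that were not tested had at most 14 counts in any library. At 0 in all 6 libraries were 7 of them, COL2A1, COL5A3, COL6A5, COL6A6, COL9A1, COL22A1 and COL25A1. COL3A1, the second main collagen of soft stroma, had 4.11, 4.32 and 1.95 normalized counts in parent replicates 1, 2 and 3 and 5.70, 0 and 1.87 in ADRr replicates 1, 2 and 3. COL11A1 had 3.08, 0 and 1.95 normalized counts in parent replicates 1, 2 and 3 and 8.55, 9.41 and 3.73 in ADRr replicates 1, 2 and 3, with each ADRr library above each parent library. The remaining 9 were COL4A3, COL9A3, COL10A1, COL14A1, COL19A1, COL21A1, COL23A1, COL26A1 and COL28A1. At these counts no difference can be read from the values.

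The classes of collagen that held most of the chain transcripts differed between the lines. The summed FPKM of all chains was 312, 302 and 325 in parent replicates 1, 2 and 3 and 295, 303 and 298 in ADRr replicates 1, 2 and 3. The groups overlapped (two-sided exact permutation test, p = 0.2, where 3 against 3 libraries cannot go below 0.1). As counts, which are not divided by gene length, the 44 chains held a CPM (counts scaled to library total) of 3448, 3348 and 3556 in parent libraries and of 2756, 2835 and 2741 in ADRr libraries. By that measure every ADRr library lay below every parent library. Beaded and anchoring collagens made up 18.8% ± 0.83 of the summed FPKM in parent cells and 50.8% ± 0.49 in ADRr cells (SD, n = 3 libraries each). The class shares below are also of summed FPKM, and shares of the counts were not computed. Fibrillar collagens went from 24.8% ± 0.11 to 12.2% ± 0.074, FACIT collagens from 24.3% ± 1.19 to 11.3% ± 0.24, and network collagens from 20.6% ± 0.25 to 16.0% ± 0.26. Multiplexins went from 6.77% ± 0.64 to 5.00% ± 0.25. The libraries of the lines did not overlap for any of these 5 classes, each at the smallest p the exact permutation test allows (0.1). Transmembrane collagens overlapped, at 4.81% ± 0.45 and 4.63% ± 0.16 (exact permutation p = 0.6). In absolute terms the beaded and anchoring sum rose from 58.8 ± 4.78 to 152 ± 3.34 FPKM, and the fibrillar sum fell from 77.5 ± 2.81 to 36.6 ± 0.54.

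**Figure D3:**
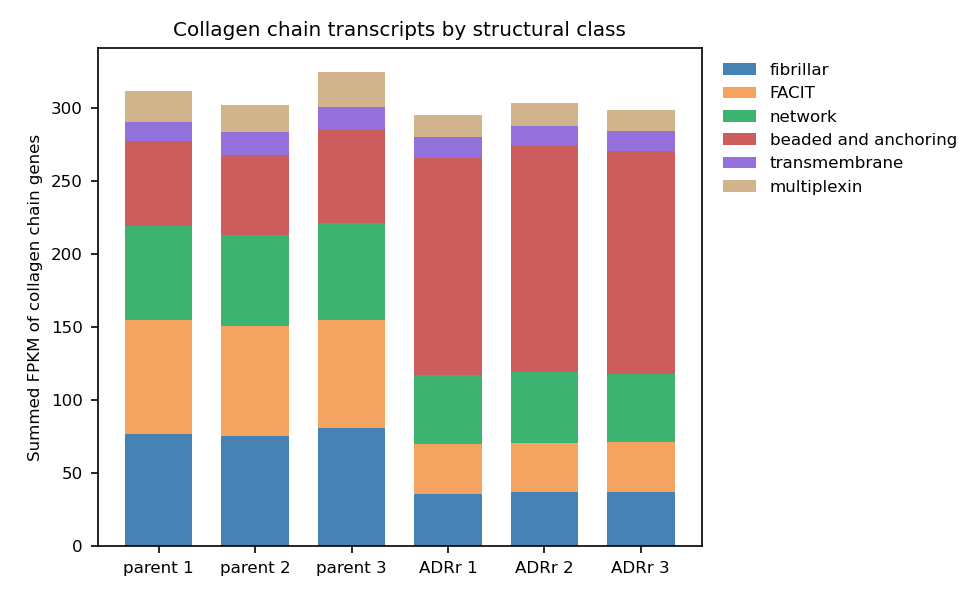
Summed FPKM of the 44 collagen chain genes in each library, stacked by structural class. The totals lie between 295 and 325 in all 6 libraries, while the beaded and anchoring part grows from between 54.4 and 63.9 FPKM in parent to between 149 and 155 FPKM in ADRr libraries.

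A few chains carried these shares. COL6A1 held 6.17% ± 0.38 of the chain FPKM in parent and 21.4% ± 0.59 in ADRr cells, and COL6A2 held 4.39% ± 0.30 and 23.3% ± 0.26. COL12A1 went from 21.1% ± 1.41 to 9.96% ± 0.25 and COL5A1 from 20.8% ± 0.18 to 9.97% ± 0.10, and these chains did not differ from each other beyond their spread in either line. COL4A2 kept a similar share, at 7.76% ± 0.24 and 7.99% ± 0.28. COL8A1 went from 7.10% ± 0.38 to 2.72% ± 0.068 and COL1A2 from 1.93% ± 0.11 to 0.0114% ± 0.0070.

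Ratios of partner chains give the balance of transcripts within a collagen type, in FPKM, for 6 pairs with both chains tested. The COL1A1 to COL1A2 ratio was 0.444, 0.443 and 0.507 in parent replicates 1, 2 and 3 and 87.8, 34.9 and 70.4 in ADRr replicates 1, 2 and 3. Parent cells held less COL1A1 than COL1A2 transcript per length and ADRr cells held mostly COL1A1. The COL6A1 to COL6A2 ratio was 1.46, 1.39 and 1.37 in parent and 0.901, 0.898 and 0.956 in ADRr libraries, so the order of these chains also turned. The COL6A1 to COL6A3 ratio went from 17.2, 17.2 and 19.8 to 112, 113 and 107. The COL4A1 to COL4A2 ratio moved little, from 0.603, 0.649 and 0.597 to 0.489, 0.484 and 0.537. For COL8A1 to COL8A2 it went from 112, 281 and 107 to 30.8, 31.8 and 21.7, a pair in which COL8A2 rested on few counts. For these 5 pairs the groups did not overlap, at the smallest p of the two-sided exact permutation test (0.1, or 0.12 with Benjamini-Hochberg adjustment over the 6 pairs). The COL5A1 to COL5A2 ratio overlapped between the lines (386, 302 and 457 against 312, 143 and 173, exact permutation p = 0.2).

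**Figure D4:**
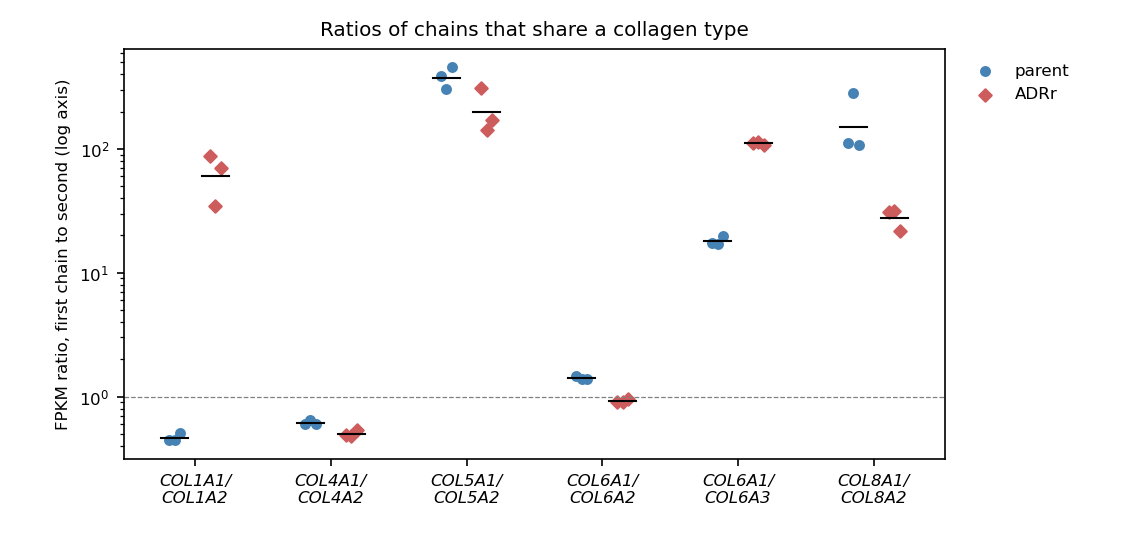
FPKM ratio of the first chain to the second in each library (log axis) for 6 pairs of chains that share a collagen type, with the geometric mean as a bar and a ratio of 1 as a dashed line. COL1A1/COL1A2 goes from about 0.444 to 34.9 or more, and COL6A1/COL6A2 crosses from above 1 to below it.

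Among the enzymes that hydroxylate collagen, most were lower in ADRr cells. Prolyl 4-hydroxylases make the hydroxyproline that stabilises the helix, and P4HA1, P4HA2 and P4HA3 are their alternative catalytic subunits. P4HA1 was called lower (-0.68, 1369 ± 115 to 854 ± 20.9 normalized counts). P4HA2 had 2095 ± 128 and 2357 ± 71.4 and stayed short of the fold threshold (0.17, edgeR adjusted p = 0.013). P4HA3 was called lower at a low level (-1.45, 33.0 ± 10.9 to 11.8 ± 6.75), where 4.14% of its exonic bases overlap PPME1 on the other strand, a gene with a mean of 3150 counts. Strandedness of the counting is not given in the sources used here, so reads of such overlapping genes cannot be told apart. Lysyl hydroxylases prepare lysines for cross-linking and for sugar attachment. PLOD1 (-0.62, 2974 ± 243 to 1931 ± 64.8) and PLOD2 (-0.67, 3077 ± 318 to 1930.3 ± 26.8), the latter known for hydroxylating the chain ends, were both called lower. PLOD3, which also attaches sugars, was the only one of the 13 enzymes called higher (0.58, 2903 ± 103 to 4329 ± 284), and 7.56% of its exonic bases overlap ZNHIT1 on the other strand.

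Of the 5 lysyl oxidases, copper enzymes that start the cross-links, 3 were called lower and none higher. LOX (ENSG00000113083, GRCh38 chromosome 5, 122063195 to 122078360) had 798, 889 and 799 normalized counts in parent replicates 1, 2 and 3 and 319, 284 and 353 in ADRr replicates 1, 2 and 3. The groups were well apart, and LOX fell 2.60-fold (log2 fold change -1.38, SE 0.089, adjusted p = 5.3e-12 in edgeR). Of its exonic bases 2.49% overlap SRFBP1 on the other strand, which had a mean of 486 counts, against 568 for LOX. LOXL4 (ENSG00000138131, GRCh38 chromosome 10, 98247690 to 98268250) had 3004, 3185 and 2980.1 normalized counts in parent replicates 1, 2 and 3 and 1365, 1418 and 1279 in ADRr replicates 1, 2 and 3. It fell 2.26-fold (log2 fold change -1.18, SE 0.058, adjusted p = 4.1e-14). LOXL1, which also serves elastic fibres, was called lower (-0.94, 239 ± 28.5 to 124 ± 14.1), with 9.21% of its exonic bases overlapped by LOXL1-AS1, which had a mean of 389 counts. LOXL2, a cross-linker of type IV collagen, had the highest FPKM of all 57 genes in both lines (109 ± 6.43 in parent and 119 ± 0.538 in ADRr cells). Its fold change was below the threshold (0.13, edgeR adjusted p = 0.025). LOXL3 was not called (0.39, edgeR adjusted p = 0.10, 57.0 ± 9.36 to 74.7 ± 10.4), although each of its ADRr libraries lay above each parent library. Of its exonic bases 14.3% overlap HTRA2 and 4.95% overlap DOK1, both on the other strand. HTRA2 and DOK1 had means of 471 and 356 counts, against 66.3 for LOXL3.

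SERPINH1, the collagen-specific chaperone, was called lower (-0.72, 8316 ± 576 to 5043 ± 130.3 normalized counts), and its FPKM, 75.8 ± 5.14 in parent and 46.1 ± 1.07 in ADRr cells, was second to that of LOXL2 among the 57 genes in parent cells. PCOLCE, which speeds the removal of the procollagen end piece, had 42.0 ± 8.82 and 40.7 ± 4.69 and was not called (-0.04, edgeR adjusted p = 0.90).

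A further 45 genes that act on collagen were counted in the same edgeR fit, of which 32 were tested, 6 called higher and 15 lower (65.6% called, against 58.8% of all tested genes). Folding, glycosylation and secretion genes were mostly lower, with 11 of 16 tested genes called lower and 1 higher. The gene called higher was MIA2 (1.22, 902 ± 85.2 to 2092 ± 183 normalized counts), which helps load large cargo at endoplasmic reticulum exit sites. P3H3, a prolyl 3-hydroxylase relative (-3.03, 43.3 ± 17.3 to 5.32 ± 4.23), and FKBP10, a prolyl isomerase, were called lower, both at low counts. Without ADRr replicate 2 the value of P3H3 was -3.67, and without ADRr replicate 1 it was -2.52. FKBP10 had 10.3, 18.4 and 16.5 normalized counts in parent replicates 1, 2 and 3 and 0, 2.09 and 6.53 in ADRr replicates 1, 2 and 3 (-2.32). Its log2 fold change was -1.73 without ADRr replicate 1 and -3.75 without ADRr replicate 3. P3H4, another relative at higher counts, was also called lower (-2.20, 396 ± 35.6 to 86.1 ± 17.8), between -2.35 and -2.05 when 1 library was left out. P4HB, the shared subunit of the prolyl 4-hydroxylases, was not called, at 15707 ± 1023 and 15380.1 ± 424 (-0.03). Of the procollagen proteinases, ADAMTS14, which trims the amino end, was called higher (1.58, 56.4 ± 6.35 to 169 ± 4.08) and BMP1, which trims the carboxyl end, lower (-0.55, 1585 ± 59.5 to 1082 ± 28.6), with 4 of 7 tested. Of the receptors, the collagen-binding integrin subunits ITGA1 (1.32, 626 ± 17.0 to 1561 ± 77.9) and ITGA2 (1.15, 1584 ± 157 to 3509 ± 47.9) were called higher and their common partner ITGB1 lower (-0.48, 23385 ± 881 to 16714 ± 591), with 6 of 9 tested. Of the genes for degradation and uptake, 4 of 8 were tested. The interstitial collagenase MMP1 rose from 17.5, 2.16 and 14.6 normalized counts in parent replicates 1, 2 and 3 to 1974, 1894 and 1889 in ADRr replicates 1, 2 and 3 (7.35). The membrane-bound MMP14 was called higher (0.54, 6696 ± 406 to 9707 ± 329) and the collagen-cleaving cathepsin CTSK lower (-1.37, 39.7 ± 3.17 to 15.3 ± 2.36). Among the fibril-binding proteoglycans, LUM was called lower (-0.67, 78.1 ± 9.66 to 48.9 ± 5.71) and 2 of 4 were tested.

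The genes around a collagen gene on its chromosome sometimes moved with it and sometimes did not. For each tested gene, the median log2 fold change was taken over all other tested genes centred within 1 Mb, as a description with no test. Around COL6A1 on chromosome 21 this median was 0.76 over 24 genes, 16 of them called higher and 3 lower, and around COL6A2 it was 0.74 over 23 genes. COL6A1 and COL6A2, which count among each other's neighbours, both exceeded it. COL18A1, which lies 468016 bases before COL6A1, fell in the same neighbourhood, where its own median was 0.71 over 33 genes. The neighbours of COL7A1 on chromosome 3 had a median of -0.73 over 40 genes, with 31 called lower and 0 higher (edgeR), and COL7A1 fell by less (-0.48). COL1A2 (10 neighbours, median 0.34), LOX (7 neighbours, 0.50) and COL8A1 (11 neighbours, 0.23) went against theirs. Around COL4A6 the median was -0.03 over 7 genes and around COL4A4 it was -0.59 over 7. The neighbours of other lowered genes moved little. Their medians were 0.07 for COL5A1 (10 neighbours), -0.17 for COL12A1 (4), -0.07 for COL9A2 (30) and -0.04 for LOXL4 (19).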

How the data were processed

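RNA-seq of 3 parent and 3 ADRr libraries of MDA-MB-231 cells was used. The study's methods describe polyadenylated RNA, the CORALL kit and paired-end sequencing on a NovaSeq, whereas the sample records describe another kit. The submitters' processing notes name fastp, HISAT2 2.0.5, featureCounts 1.5.0-p3, DESeq2 1.20.0 and GRCh38. The authors deposited raw counts for each gene, and also FPKM values (counts divided by gene length and by library size). Strandedness is not given in the sources used here. Lengths of all 58735 genes equalled the merged exon lengths of GENCODE 29.

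The raw counts went into edgeR 4.0.16, run in R 4.3.3 (filterByExpr, TMM, quasi-likelihood test, Benjamini-Hochberg adjustment over 15242 genes), and 43493 genes were not tested. Calls needed an adjusted p no higher than 0.05 together with a 1.2-fold or larger change. The test gives no standard error. Each SE is the absolute log2 coefficient divided by the square root of the F statistic, which can be too small at low counts. No replicate block was used. Chain ratios and class shares used FPKM and two-sided exact permutation tests over libraries. Scripts were tested on simulated data.

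Library values and positions were given for members that moved by 1 or more on the log2 scale and averaged 100 normalized counts or more in the higher line, and for partner chains. Values of COL3A1, COL11A1, P4HB, P3H4, COL9A3 and the markers were added after they were seen. Of the other pathway genes, up to 2 increases and 2 decreases called per list were named. Promoter windows came from RefSeq (GRCh38.p14), the first listed per gene. The members and all lists were chosen with earlier results of these data known, and no list was tested as a set.

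Alternatives were DESeq2's size factors, library size alone, DESeq2 1.42.0, no filter on low counts, a floor of 10 counts in each library, a replicate block, each library left out, an absolute log2 fold change of 1.2, and limma-trend (limma 3.58.1) on log2(FPKM + 1) or log2(FPKM + 0.1) for genes with a mean FPKM of at least 0.5.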

Additional observations from a re-analysis of the deposited data

How the results depend on the processing

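Counts of called genes moved most when an absolute log2 fold change of 1.2 was required. All tested genes called were then 2086 (1114 higher and 972 lower), the 57 collagen genes and enzymes 10 (3 and 7), the chains 8 (3 and 5), the enzymes 2 (0 and 2) and the other pathway genes 8, of them 4 lower. Over the other alternatives 5 to 8 members were called higher and 17 to 23 lower. With the replicate block edgeR called 7 members higher and 22 lower, and no member's call changed. Deviations of same-numbered libraries correlated at 0.0073, -0.021 and -0.046, so the numbers were not taken to pair the libraries.

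The 39 tested members had 523 values under alternatives, of which 515 stayed on their side of the threshold, and 33 members never changed it. The other 6 were COL8A2, COL13A1, COL15A1, COL16A1, COL17A1 and COL20A1, whose values under the alternatives concerned stand beside their results, except that COL17A1 also lost its call on log2(FPKM + 1), at 0.23. No called member changed direction, while the estimates of COL4A2, COL5A2 and PCOLCE, none of them called, crossed 0 when single libraries were left out. On log2(FPKM + 1) COL6A3 came to -0.39. The difference in the transmembrane share of chain FPKM, ADRr minus parent, was -0.18 percentage points, between -0.43 and 0.011 when 1 library was left out, and it turned positive (0.011) without parent replicate 2. The other class shares and the chain ratios kept their direction when each library was left out, a check added for the ratios after the data were seen. In the same check of the 32 other pathway genes tested, also added after the data were seen, no call was lost, ITGA10 was called higher without ADRr replicate 2 (0.99), and P4HB, MRC2 and DDR2, none of them called, crossed 0. The median log2 fold change of all tested genes lay between -0.0088 and 0.020 under every alternative fit. Low counts limited COL4A3, COL5A2, COL8A2, P4HA3 and the 18 untested chains. The causes of these shifts were not tested.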
